A study of Homo sapiens with 6 samples.

Results

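The genes described here are 9 ligands and receptors of the Notch pathway together with HES1, a transcription factor that Notch induces. They are the ligands JAG1, JAG2, DLL1, DLL3 and DLL4, the receptors NOTCH1, NOTCH2, NOTCH3 and NOTCH4, and HES1, found by symbol as 10 of 23368 gene rows of the count table. RNA was sequenced from HCT116, an established human colon cancer cell line known to carry an activating mutation of beta-catenin. ADNP, a zinc finger and homeodomain protein of chromatin, was targeted by siRNA in 3 libraries (siADNP), and 3 others came from cells given a control siRNA (siControl). The siRNA sequences, doses and durations were not given in the sources used here. Nor is it stated that replicates were separate cultures, and p-values then cover only the spread among these libraries, which may be technical. The comparison asks which Notch transcripts differed when ADNP was depleted.

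Notch signalling passes between touching cells. A ligand of the Jagged (JAG) or Delta-like (DLL) family on one cell binds a NOTCH receptor on its neighbour, the pull of the ligand exposes the receptor to ADAM and gamma-secretase proteases, and the freed intracellular domain enters the nucleus. There it joins the DNA-binding protein RBPJ and a Mastermind coactivator and turns on HES and HEY genes, which encode transcriptional repressors. In the intestine Notch holds progenitors in the absorptive lineage, with HES1 repressing ATOH1, the factor of secretory cells, and JAG1 is known as a target of beta-catenin in colon cancer.

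The stretches of DNA before the start of HES1 and of its relatives HES4 and HEYL are shown because, of these known Notch targets, HES1 rose, HES4 fell and HEYL did not pass the test, and those of JAG1 and JAG2 because JAG1 rose and JAG2 did not pass. Each holds the 250 bases before the annotated start, 5′ to 3′ on the strand of the gene, from RefSeq on GRCh38.p14, which is not the hg19 build of the counts. Capitals mark each match to TGGGAA, the core of the RBPJ site, on either strand. HES1 is taken from chr3:194135898-194136147 on the plus strand, HES4 from chr1:1000098-1000347 on the minus strand, HEYL from chr1:39639644-39639893 on the minus strand, JAG1 from chr20:10674000-10674249 on the minus strand and JAG2 from chr14:105168777-105169026 on the minus strand.
HES1: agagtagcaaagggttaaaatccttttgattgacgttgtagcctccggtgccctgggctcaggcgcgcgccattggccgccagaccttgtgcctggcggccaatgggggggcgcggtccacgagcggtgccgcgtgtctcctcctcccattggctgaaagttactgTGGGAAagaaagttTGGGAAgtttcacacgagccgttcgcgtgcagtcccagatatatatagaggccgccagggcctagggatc
HES4: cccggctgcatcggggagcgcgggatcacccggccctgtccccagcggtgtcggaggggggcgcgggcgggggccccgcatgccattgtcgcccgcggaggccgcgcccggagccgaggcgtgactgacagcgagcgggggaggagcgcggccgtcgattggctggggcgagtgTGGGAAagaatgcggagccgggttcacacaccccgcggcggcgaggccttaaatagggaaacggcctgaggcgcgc
HEYL: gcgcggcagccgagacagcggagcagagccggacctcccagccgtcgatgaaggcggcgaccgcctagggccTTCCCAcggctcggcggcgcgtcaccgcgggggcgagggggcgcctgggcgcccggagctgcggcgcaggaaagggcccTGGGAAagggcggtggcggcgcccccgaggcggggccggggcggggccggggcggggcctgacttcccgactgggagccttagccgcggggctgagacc
JAG1: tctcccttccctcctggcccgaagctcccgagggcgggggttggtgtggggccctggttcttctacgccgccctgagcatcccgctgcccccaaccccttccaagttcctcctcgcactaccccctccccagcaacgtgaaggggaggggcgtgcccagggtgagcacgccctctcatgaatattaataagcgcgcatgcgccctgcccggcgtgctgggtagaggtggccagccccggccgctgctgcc
JAG2: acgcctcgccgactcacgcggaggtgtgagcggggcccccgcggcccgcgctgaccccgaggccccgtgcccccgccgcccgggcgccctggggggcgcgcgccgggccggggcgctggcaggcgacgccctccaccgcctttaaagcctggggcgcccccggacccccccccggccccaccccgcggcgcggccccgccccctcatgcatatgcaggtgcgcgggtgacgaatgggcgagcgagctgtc

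The HES1 window held 2 matches to TGGGAA, both on the strand of the gene, beginning 84 and 70 bases before the start. HES4 held 1 match, 76 bases before the start. HEYL held 2 matches, beginning 178 and 99 bases before the start, the first of them on the opposite strand, where the printed strand reads TTCCCA. In all 3 genes the match farthest from the start lay within GTGGGAA. The letters were not found in the JAG1 and JAG2 windows, nor in those of the 5 other members that matched the RefSeq table, DLL4 and the 4 receptors. Of 35116 promoter windows of this length, 20.8% held at least 1 match to TGGGAA on either strand and 2.90% held at least 2, while 5.43% held GTGGGAA, which contains TGGGAA. A match is a description of letters, not evidence of binding.

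**Figure D1:**
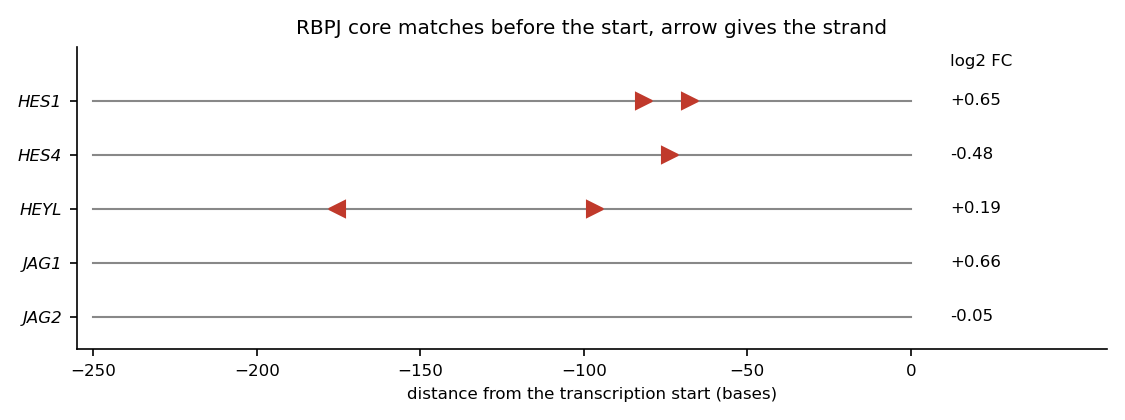
Positions of TGGGAA matches in the 250 bases before the start of 5 genes. The horizontal axis is the distance from the start in bases, arrows point along the strand of the match, and the numbers at the right are log2 fold changes (siADNP minus siControl). HES1 and HEYL each have 2 matches and HES4 has 1, while their fold changes are 0.65, 0.19 and -0.48.

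Reads assigned to genes numbered 7396771 to 8726017 per siADNP library and 8282290 to 10265175 per siControl library. Levels are given as CPM, gene counts brought to a common library size with scaling by the trimmed mean of M-values (TMM). ADNP, the target, held 46.7, 55.3 and 59.8 CPM under siADNP against 171, 155 and 167 CPM under siControl. Its log2 fold change was -1.61 ± 0.07 (SE), and edgeR's quasi-likelihood test gave an adjusted p = 2.62e-20 (Benjamini-Hochberg over all tested genes), and it was lower in each siADNP library than in any siControl library. Epithelial markers were abundant, with a summed level of 3018 to 3230 CPM in siADNP and 3127 to 3191 CPM in siControl over 10 markers. Most of it came from KRT8 and KRT18, with means of 1302 and 988 CPM in siADNP and 1297 and 968 CPM in siControl. VIL1 and CDX1 had 0 reads, and KRT20 and CDH17 had too few to test. Of 6 tested, KRT19 was called lower (-0.15, adjusted p = 0.0203, edgeR) and 5 did not pass. A change in bulk RNA does not separate fewer cells with a transcript from less of it per cell.

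Of the 10 members, 8 had enough reads to test, and each of the 8 reached the filter level of about 1.18 CPM in every siControl library. With siADNP, 6 of the 8 rose and 2 did not pass at an adjusted p under 0.05, where 14.6% of all 12489 tested genes were called higher and 28.3% were called in either direction. Of the 8, 0 fell, and 0 were lower at an unadjusted p under 0.05 in edgeR or called lower by DESeq2 or limma. With an offset for transcript GC content the counts were 3 higher and 1 lower, the latter JAG2 (-0.21, adjusted p = 0.00880). The groups did not overlap in 4 of the 8, against 40.8% of all tested genes. The median log2 fold change of the tested members was 0.50, and that of all tested genes was -0.00128. The rises of JAG1, HES1 and NOTCH2 passed in each of the 17 alternative fits. Those of NOTCH3, NOTCH1 and DLL4 depended on the fit.

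**Figure D2:**
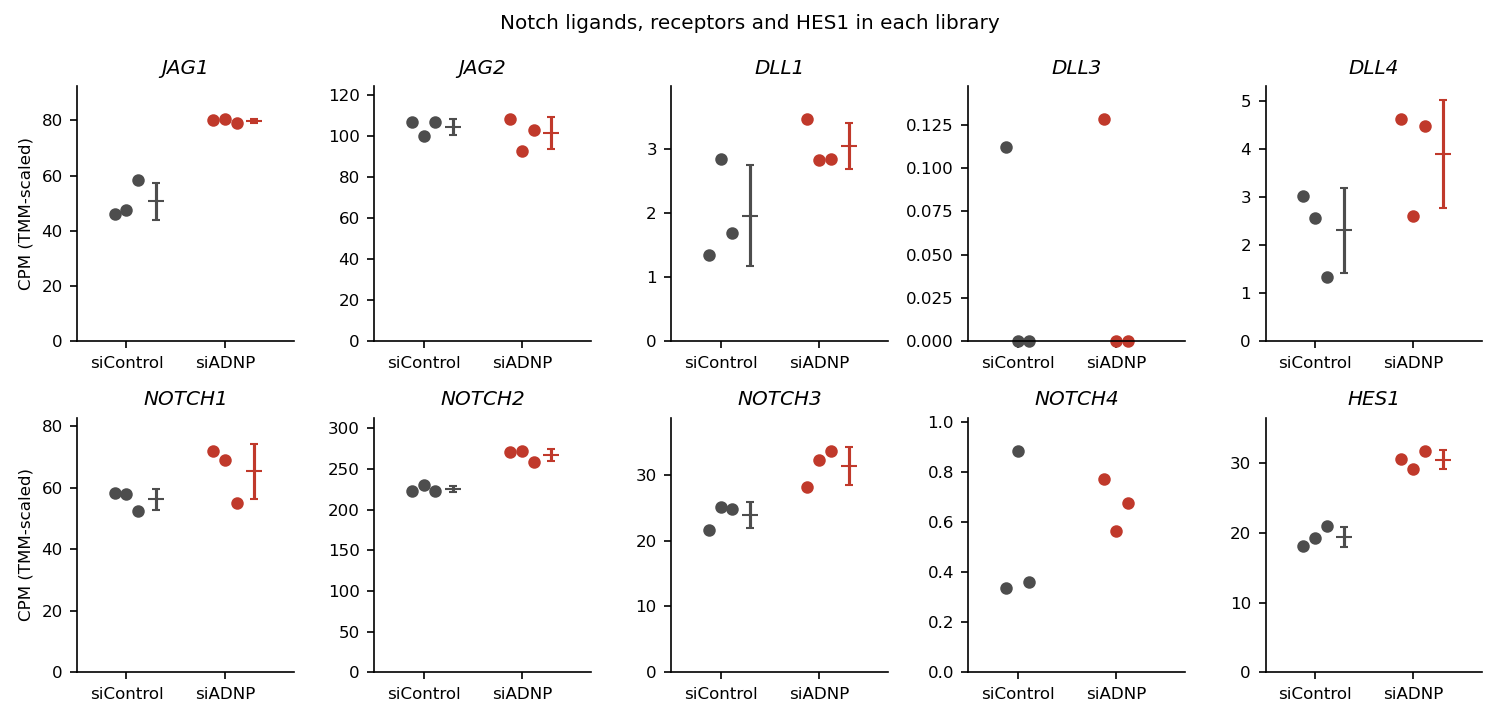
Level of each member in every library (vertical axis, CPM with TMM scaling, each panel starting at 0). Points are single libraries and, for the 8 tested members, the bar beside them is the mean with its SD (n = 3). All 3 siADNP libraries lie above all 3 siControl libraries for JAG1, NOTCH2, NOTCH3 and HES1, and the groups overlap for the others.

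Per length of transcript, NOTCH2 and JAG2 were the most abundant receptor and ligand. In siControl, levels in CPM per kilobase of the longest coding transcript were 19.8 ± 0.367 for NOTCH2, 17.9 ± 0.677 for JAG2, 12.3 ± 0.904 for HES1, 8.52 ± 1.11 for JAG1, 6.05 ± 0.356 for NOTCH1 and 2.75 ± 0.222 for NOTCH3 (SD, n = 3). DLL4 and DLL1 followed at 0.671 ± 0.256 and 0.618 ± 0.249 CPM per kilobase, and their ranges overlapped, whereas every other pair of neighbours in this order was separate. NOTCH4 and DLL3 came last, at 0.0782 and 0.0160 CPM per kilobase. The lowest NOTCH4 value, 0.0499, barely exceeded the highest DLL3 value, 0.0481. With 3, 9 and 3 reads for NOTCH4 and 1, 0 and 0 for DLL3, that separation is not established. In siADNP the order was the same except that HES1, at 19.3 ± 0.831, stood above JAG2, at 17.4 ± 1.33, with overlapping ranges. The transcript lengths come from GENCODE release 29, and which isoform these cells use was not tested.

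JAG1, a ligand with a single membrane span whose loss causes Alagille syndrome, rose 1.58-fold with siADNP. The siADNP replicates held 80.0, 80.4 and 79.0 CPM, against 46.1, 47.6 and 58.2 CPM for siControl. The siADNP values were close together, the third siControl library was the highest of its group, and the groups did not overlap. The log2 fold change was 0.66 ± 0.07 (SE; edgeR adjusted p = 4.05e-09), with a 95% interval of 0.52 to 0.81. The change ranked at 96 by p among the tested genes.

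JAG2, the paralogue of JAG1, did not pass. A processed transcript on the same strand covers 469 of its exonic bases (7.33%) in GENCODE and may share its reads. It stood at 108, 92.9 and 103 CPM in siADNP and at 107, 99.9 and 107 CPM in siControl, with overlapping groups. The log2 fold change was -0.05 ± 0.06 (SE; adjusted p = 0.606, edgeR), and the 95% interval was -0.17 to 0.07. JAG2 was called lower in the alternative fit with an offset for transcript GC content, with -0.21 (adjusted p = 0.00880, edgeR). The ratio of JAG1 to JAG2 reads, which needs no scaling between libraries, was 0.740, 0.866 and 0.768 in siADNP and 0.431, 0.476 and 0.546 in siControl. Every siADNP ratio was thus above every siControl ratio. Counted per length over the 5 ligands, JAG1 made up 40.9 ± 2.33% of ligand transcripts in siADNP and 30.7 ± 2.85% in siControl (SD, n = 3), and JAG2 made up 52.7 ± 1.35% and 64.6 ± 1.97%.

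The Delta-like ligands were scarce. DLL4, best known from sprouting endothelium and also made by secretory precursors of the gut, stood at 4.62, 2.60 and 4.47 CPM in siADNP and at 3.03, 2.56 and 1.33 CPM in siControl. Its groups overlapped, since siADNP replicate 2 lay between siControl replicates 1 and 2. The log2 fold change was 0.72 ± 0.28 (SE), just past the threshold (adjusted p = 0.0498, edgeR). The call ended without siADNP replicate 1 (log2 fold change 0.57, adjusted p = 0.205), siADNP replicate 3 (0.61, adjusted p = 0.169), siControl replicate 2 (0.80, adjusted p = 0.0725) or siControl replicate 3 (0.47, adjusted p = 0.249), and in DESeq2's Wald test (adjusted p = 0.178). It also ended with the GC offset (0.59, adjusted p = 0.119), the length offset (adjusted p = 0.0597), a filter of 1 CPM in 3 libraries (adjusted p = 0.0501) and DESeq2's size factors (adjusted p = 0.0504).

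DLL1, the Delta-like ligand of crypt secretory cells, stood at 3.47, 2.83 and 2.85 CPM in siADNP and at 1.35, 2.85 and 1.69 CPM in siControl. The groups overlapped through siControl replicate 2. DLL1 did not pass (log2 fold change 0.60 ± 0.29 (SE), adjusted p = 0.118, edgeR), but did without siControl replicate 2 (adjusted p = 0.0291). DLL3, an unusual family member that inhibits Notch from inside the cell, had 1 read in all under siADNP and 1 under siControl and was not tested. At these depths 3 reads, the limit that a count of 0 allows, correspond to 0.295 to 0.407 CPM, for counting error only.

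NOTCH2, the most abundant receptor, rose 1.19-fold. It stood at 271, 273 and 259 CPM in siADNP and at 223, 230 and 223 CPM in siControl. The groups did not overlap, and the log2 fold change was 0.25 ± 0.05 (SE; adjusted p = 0.000158, edgeR). NOTCH2 shares near-identical sequence with NOTCH2NL genes, which arose from partial copies of it, so reads from the shared part cannot be assigned with certainty. NOTCH2NL itself, listed once in the table, stood at 29.9 ± 2.83 CPM in siADNP and 28.2 ± 1.64 CPM in siControl (SD, n = 3) and did not pass (0.09 ± 0.09 (SE), adjusted p = 0.474, edgeR).

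NOTCH3, a receptor best known from vascular smooth muscle, stood at 28.1, 32.2 and 33.6 CPM in siADNP and at 21.6, 25.1 and 24.8 CPM in siControl. It rose 1.31-fold without overlap of the groups (log2 fold change 0.39 ± 0.09 (SE), adjusted p = 0.00151, edgeR). With the GC offset the value was 0.24 and just missed the threshold (adjusted p = 0.0558).

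NOTCH1, the founding mammalian receptor and a driver of T cell leukaemia, stood at 72.0, 69.0 and 55.2 CPM in siADNP and at 58.4, 57.9 and 52.4 CPM in siControl. The third siADNP library lay within the siControl range. NOTCH1 rose by the test over all libraries (log2 fold change 0.22 ± 0.08 (SE), adjusted p = 0.0272, edgeR). It did not pass without siADNP replicate 1 (0.15, adjusted p = 0.199), siADNP replicate 2 (0.18, adjusted p = 0.125) or siControl replicate 3 (0.17, adjusted p = 0.130), nor in DESeq2's Wald test (adjusted p = 0.124), with the length offset (0.18, adjusted p = 0.0700) or with the GC offset (0.07, adjusted p = 0.564). The value was 0.33 when siADNP replicate 3 was left out.

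NOTCH4, a receptor of endothelium, had 16 reads in all under siADNP and 15 under siControl and was not tested. Counted per length, the shares of the receptors overlapped between the groups. NOTCH2 made up 68.6 ± 0.841% of receptor transcripts in siADNP and 69.0 ± 0.482% in siControl, NOTCH1 20.5 ± 2.06% and 21.1 ± 1.01%, and NOTCH3 10.6 ± 1.3015% and 9.60 ± 0.735% (SD, n = 3).

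The markers of the other cells that use these genes were few. Over 10 endothelial markers the summed level was 6.12 to 9.08 CPM in siADNP and 5.67 to 8.07 CPM in siControl, with CDH5 and CLDN5 at 0 reads. ESAM alone was testable and did not pass (adjusted p = 0.348, edgeR). Over 11 markers of mural cells and fibroblasts the sum was 25.1 to 31.9 CPM and 30.3 to 34.4 CPM, with DCN and LUM at 0. Of 5 tested, DES was called higher (1.83, adjusted p = 5.48e-06), and ACTA2 (-1.04, adjusted p = 0.000127) and RGS5 (-0.39, adjusted p = 0.0325) lower, the last of them not in DESeq2's Wald test (0.143). Over 10 blood cell markers the sum was 9.40 to 10.5 CPM in siADNP and 7.23 to 7.85 CPM in siControl, without overlap. Most of this was CD68 alone, at 9.44 ± 0.298 CPM in siADNP and 7.04 ± 0.443 CPM in siControl (SD, n = 3). CD68, the single testable one, was called higher (0.42, adjusted p = 0.0366, edgeR), though not in DESeq2's Wald test (0.174). PTPRC, a marker of white blood cells, had 7 reads in all under siADNP and 6 under siControl. The part of these transcripts in the values of the members was not tested.

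HES1 encodes a basic helix-loop-helix repressor, and its transcript rose 1.57-fold. It stood at 30.6, 29.1 and 31.7 CPM in siADNP and at 18.2, 19.2 and 20.98 CPM in siControl. The lowest siADNP library was well above the highest siControl library, and the log2 fold change was 0.65 ± 0.09 (SE; adjusted p = 1.85e-06, edgeR), with a 95% interval of 0.46 to 0.84.

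Of the 4 tested relatives of HES1, 1 fell and 3 did not pass. HES4 fell (log2 fold change -0.48 ± 0.14 (SE), adjusted p = 0.00658, edgeR), from 12.9, 12.6 and 14.8 CPM in siControl to 10.02, 10.1 and 8.54 CPM in siADNP. Its groups were separate, in the opposite order to HES1, and its fall passed in each of the 17 alternative fits. The ratio of HES1 to HES4 reads within a library was 3.05, 2.89 and 3.71 in siADNP and 1.41, 1.52 and 1.41 in siControl. HEYL stood at 18.1, 18.2 and 15.3 CPM in siADNP and at 16.3, 14.1 and 15.3 CPM in siControl and did not pass (0.19 ± 0.12 (SE), adjusted p = 0.236, edgeR), with a 95% interval of -0.05 to 0.42. HES6 and HES2 did not pass either (0.26 and 0.09; adjusted p = 0.109 and 0.731, edgeR). HEY1 had 7 reads in all under siADNP and 19 under siControl, HES7 had 3 and 1, HEY2 had 1 and 1, and HES5 had 0 in both groups, all too few to test.

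**Figure D3:**
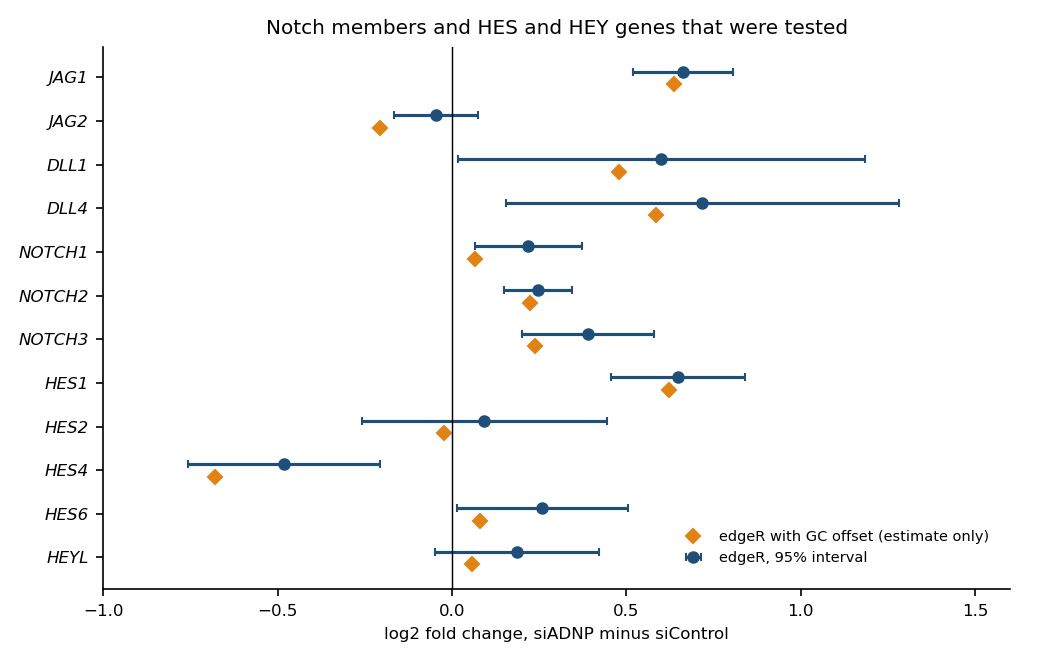
Log2 fold changes (horizontal axis, siADNP minus siControl) of the tested members and of the tested HES and HEY genes. Circles are edgeR estimates with 95% intervals and diamonds the estimates after an offset for transcript GC content. JAG1 and HES1 lie near 0.65 under both, JAG2 moves from -0.05 to -0.21, NOTCH1 from 0.22 to 0.07, and HES4 lies below 0 under both.

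Among the other known Notch targets, SOX9, a transcription factor of crypt progenitors, rose (log2 fold change 0.29 ± 0.05 (SE), adjusted p = 7.33e-05, edgeR). CCND1, which encodes cyclin D1, fell (-0.43, adjusted p = 6.42e-09). MYC fell slightly (-0.13, adjusted p = 0.0363). Its call ended without siADNP replicate 2 (adjusted p = 0.128), siADNP replicate 3 (0.0576), siControl replicate 1 (0.161) or siControl replicate 2 (0.123), and with upper-quartile scaling (0.0996) or library totals (0.0508). NRARP, a feedback inhibitor that Notch induces, did not pass (0.32, adjusted p = 0.166). Of the 14 listed targets, HES1 included, 9 were tested, of which 2 rose, 3 fell and 4 did not pass, with a median log2 fold change of 0.19, where 14.6% of all tested genes rose and 13.7% fell. Of 10 genes of the secretory lineage, which HES1 opposes, 3 were tested, 2 of them the Delta-like ligands above. ATOH1 had 4 reads in all under siADNP and 3 under siControl, MUC2 had 4 and 3, and NEUROG3 and TFF3 had 0.

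The members differed in transcript GC content, with which fold changes moved over all genes. Called rises had a median GC content of 54.5% and called falls 43.2%, against 49.0% in genes not called. JAG1, NOTCH2 and HES1 had GC contents of 49.6%, 49.4% and 49.9%, where a smooth curve through all tested genes (loess) stood at a log2 fold change of 0.02, 0.02 and 0.03. NOTCH1, NOTCH3 and JAG2 had 62.9%, 63.1% and 64.03%, where the curve stood at 0.15, 0.15 and 0.16. HES4 had 73.9%, and its fall lay against a curve at 0.20. With the curve taken as an offset, 3 members were called higher (JAG1, NOTCH2 and HES1, at 0.64, 0.22 and 0.62) and 1 lower (JAG2). HES4 stood at -0.68 (adjusted p = 0.000225, edgeR). Whether GC content had a part in these differences was not tested beyond this offset.

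**Figure D4:**
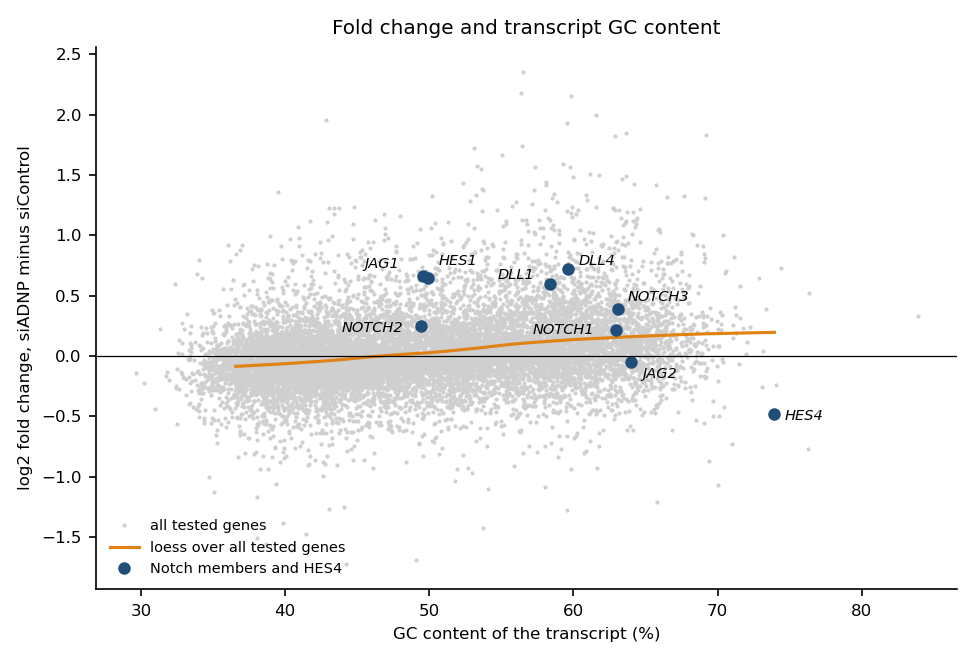
Log2 fold change (vertical axis, siADNP minus siControl) against the GC content of the transcript (horizontal axis, percent) for all tested genes with a matched transcript, with the loess curve in orange. JAG1, HES1 and NOTCH2 lie above the curve near 50% GC in a region where it is close to 0, NOTCH1 lies near the curve, and JAG2 and HES4 lie below it.

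The rest of the pathway moved in both directions. Of 94 listed genes outside the members, 75 were tested, of which 16 rose (21.3%), 12 fell and 47 did not pass, with a median log2 fold change of 0.07. Over all tested genes, 14.6% rose and 13.7% fell. The counts by role that follow cover 6 to 15 tested genes each and are to be read beside these shares. No role was tested as a set. With upper-quartile scaling, 17 rose and 7 fell. The counts were 10 and 6 in DESeq2's Wald test and 10 and 7 without siControl replicate 2.

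On the side of the sending cell, ubiquitin ligases and adaptors that draw the ligand into the cell gave 1 rise and 5 genes that did not pass among 6 tested, with a median of -0.05. The rise was in NEURL1B, a Neuralized-type ubiquitin ligase, from 10.04 ± 1.33 to 15.8 ± 1.85 CPM (SD, n = 3), with 0.67 ± 0.13 (SE; adjusted p = 0.000208, edgeR). Noncanonical ligands gave 3 rises and 3 genes that did not pass among 6 tested, with a median of 0.63, where 14.6% of all tested genes rose. MFAP2, a microfibril protein that can bind Notch, rose from 25.6 ± 1.06 to 37.2 ± 3.07 CPM (SD, n = 3), with 0.54 (adjusted p = 8.19e-06). NOV, now called CCN3, a secreted matricellular protein, rose with 0.96, from 2.06 to 3.98 CPM. DLK2, a Delta-like protein thought to inhibit Notch, rose with 1.49, from 0.516 to 1.46 CPM, but not without siControl replicate 2 (1.31, adjusted p = 0.0583). With 6, 4 and 4 reads, DLK2 was below the filter level of about 1.18 CPM in every siControl library. It entered the test only through siADNP, the group where it was high, so its call carries little weight. DESeq2's Wald test gave it no adjusted p.

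Enzymes that add sugars to the receptor's EGF repeats gave 2 rises, 1 fall and 7 genes that did not pass among 10 tested, with a median of 0.22. KDELC2 and KDELC1, now called POGLUT3 and POGLUT2, add glucose to EGF repeats. KDELC2 rose from 40.6 ± 3.99 to 58.5 ± 5.16 CPM (SD, n = 3), with 0.53 ± 0.08 (SE; adjusted p = 1.75e-06, edgeR), and KDELC1 with 0.46 (adjusted p = 0.0305). C3orf64, now called EOGT, an N-acetylglucosamine transferase, fell with -0.27 (adjusted p = 0.0129). KDELC1 did not pass without siADNP replicate 2 (adjusted p = 0.146), siADNP replicate 3 (0.0604), siControl replicate 1 (0.0740) or siControl replicate 2 (0.128), nor C3orf64 without siControl replicate 1 (0.0878), and neither did in DESeq2's Wald test (0.161 and 0.0777).

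The proteases that cut the receptor gave 1 rise, 1 fall and 7 genes that did not pass among 9, with a median of -0.04. NCSTN, the nicastrin subunit of gamma-secretase, fell with -0.22 ± 0.06 (SE; adjusted p = 0.00370, edgeR), from 96.9 ± 3.78 to 83.0 ± 2.53 CPM (SD, n = 3). APH1B, a scaffold subunit of the same complex, rose with 0.44 (adjusted p = 0.0435). It did not pass without siADNP replicate 1 (adjusted p = 0.107), siADNP replicate 2 (0.0622), siADNP replicate 3 (0.0906) or siControl replicate 3 (0.276), nor in DESeq2's Wald test (0.174) or with the length offset (0.0561). ADAM10, the main protease of the ligand-triggered cut, did not pass (0.10, adjusted p = 0.130), but did with the GC offset (0.18, adjusted p = 0.00771).

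Regulators of receptor turnover gave 2 rises, 3 falls and 5 genes that did not pass among 10 tested, with a median of 0.09. FBXW7, the ubiquitin ligase subunit that marks the Notch intracellular domain for destruction, fell from 68.4 ± 4.53 to 52.3 ± 3.56 CPM (SD, n = 3), with -0.38 ± 0.07 (SE; adjusted p = 6.20e-05, edgeR). ITCH, another ubiquitin ligase of Notch, fell with -0.15 (adjusted p = 0.0256), and NUMB, an endocytic inhibitor of Notch, with -0.20 (adjusted p = 0.0289). ITCH did not pass without siADNP replicate 1 (adjusted p = 0.0741) or siControl replicate 2 (0.216), under the GC offset (0.256) or with upper-quartile scaling (0.0651). NUMB did not pass without siADNP replicate 1 (0.142), siControl replicate 2 (0.0762) or siControl replicate 3 (0.141), under the GC offset (0.0623) or with upper-quartile scaling (0.0580). Neither passed in DESeq2's Wald test (0.0635 and 0.118). DTX4, a Deltex ubiquitin ligase, and AAK1, a kinase of endocytic adaptors, rose with 0.66 (adjusted p = 0.00270) and 0.44 (adjusted p = 0.000387). The AAK1 groups overlapped, at 58.3, 54.4 and 40.1 CPM in siADNP and 41.6, 36.1 and 35.7 CPM in siControl.

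In the nucleus, RBPJ did not pass (0.06, adjusted p = 0.402, edgeR), though it did with the GC offset (0.14, adjusted p = 0.0470). The activation complex gave 1 rise, 2 falls and 8 genes that did not pass among 11, with a median of 0.06. The acetyltransferase CREBBP rose with 0.19 (adjusted p = 0.00729), but not without siADNP replicate 1 (adjusted p = 0.0836) or siControl replicate 2 (0.0525) or with the GC offset (0.215). CDK8 and its cyclin CCNC, which phosphorylate the Notch intracellular domain, fell with -0.23 and -0.14 (adjusted p = 0.0362 and 0.0456). CDK8 did not pass without siADNP replicate 2 (adjusted p = 0.133), siADNP replicate 3 (0.0960), siControl replicate 1 (0.0916) or siControl replicate 3 (0.168). CCNC did not pass without siADNP replicate 1 (0.131), siADNP replicate 2 (0.0998), siControl replicate 1 (0.221) or siControl replicate 2 (0.0910). The calls of both ended in DESeq2's Wald test, with library totals, with upper-quartile scaling and with the GC offset.

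Corepressors gave 5 rises, 2 falls and 8 genes that did not pass among 15 tested, with a median of 0.07. Over all tested genes, 28.3% were called in either direction. The histone demethylase KDM1A rose with 0.21 (adjusted p = 0.00222). L3MBTL3, which brings KDM1A to RBPJ, fell with -0.22 (adjusted p = 0.00484), though not without siControl replicate 2 (-0.16, adjusted p = 0.0741). CIR1, an RBPJ-binding corepressor, fell with -0.29 (adjusted p = 0.0234), but not without siADNP replicate 1 (adjusted p = 0.0517), siADNP replicate 2 (0.0766) or siControl replicate 3 (0.0924), under the GC offset (0.0950) or in DESeq2's Wald test (0.118). SPEN, CTBP1 and TLE2 rose with 0.15, 0.16 and 0.36, and their calls were near the threshold (adjusted p = 0.0437, 0.0282 and 0.0490). None of the 3 passed with the GC offset (adjusted p = 0.176, 0.790 and 0.298), in DESeq2's Wald test (0.123, 0.103 and 0.205) or without siControl replicate 2 (0.204, 0.132 and 0.164). SPEN did not pass either without siADNP replicate 1 (0.263), siADNP replicate 2 (0.148), siControl replicate 1 (0.0528) or siControl replicate 3 (0.0808). CTBP1 did not pass without siADNP replicate 1 (0.108), siADNP replicate 3 (0.0546) or siControl replicate 1 (0.0547), and TLE2 without siADNP replicate 1 (0.0588), siADNP replicate 2 (0.120), siADNP replicate 3 (0.0971) or siControl replicate 3 (0.114).

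**Figure D5:**
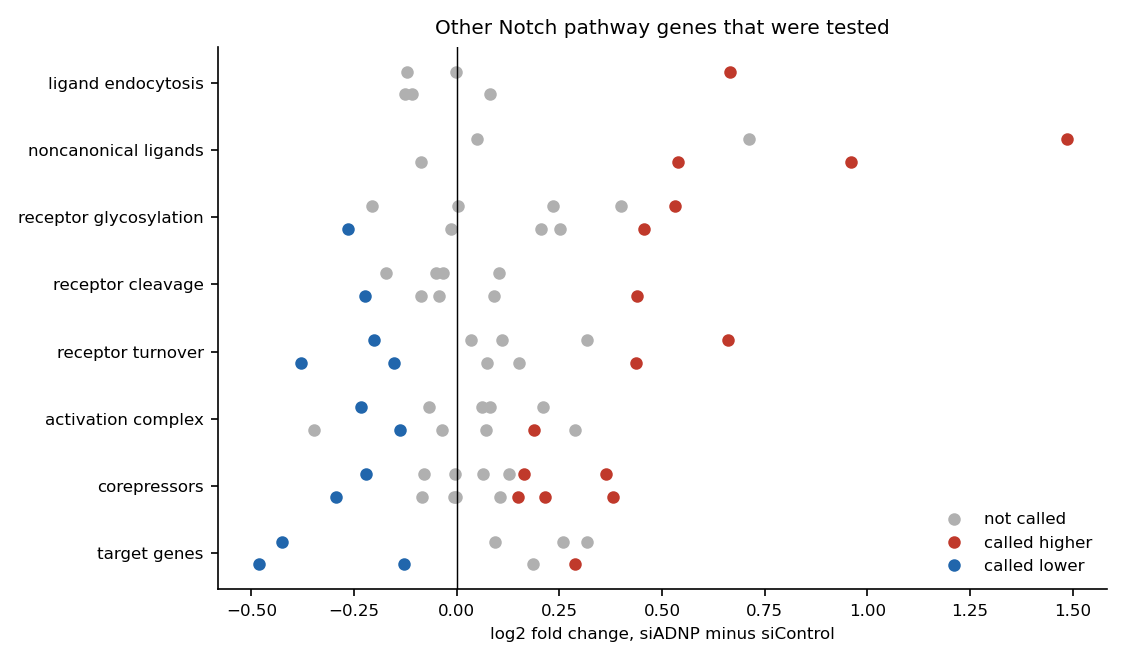
Log2 fold changes (horizontal axis, siADNP minus siControl) of the tested pathway genes outside the members, by role (rows). Each point is a gene, red where called higher, blue where called lower and grey where not called, and the vertical offset within a row only separates points. Noncanonical ligands show 3 rises and no falls among 6 tested. The widest is DLK2 at 1.49, which was below the filter level in every siControl library. Corepressors and regulators of receptor turnover show calls on both sides of 0. Over all tested genes, 14.6% were called higher and 13.7% lower.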

How the data were processed

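RNA of 6 HCT116 libraries, 3 per siRNA, was sequenced from total RNA with a Nugen kit. STAR, HTSeq and DESeq2, and the build hg19, are named in the submitters' processing notes, and the authors deposited raw counts of reads per gene symbol. Annotation and strand setting were not given in the sources used here; overlapping or antisense genes may therefore share reads. Of all reads in the table, 54.4% to 55.7% per siADNP library and 53.5% to 54.3% per siControl library fell on no feature. Per library, 17.4% to 17.9% had no unique alignment. These lines were left out. Reads assigned to genes made up 26.4% to 27.2% in siADNP and 27.7% to 28.3% in siControl. The groups did not overlap in the no-feature or the gene share, and whether this bears on fold changes was not tested. A second deposited table holds values on a log2-like scale, used only in an alternative test.

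The main test was edgeR 4.0.16 under R 4.3.3 (TMM scaling, filterByExpr with a minimum count of 10, glmQLFit and glmQLFTest, two-sided, Benjamini-Hochberg adjustment over all 12489 tested genes). SE was taken as the size of the log2 change over the root of F. The test was also run on counts simulated from edgeR's own dispersion estimates. These held far fewer changed genes than were called here and no GC trend, so they do not check the calls above. No 2 libraries held identical counts. Alternatives were DESeq2 1.42.0, limma 3.58.1 on the deposited log2 values, other scalings and filters, a replicate block, GC and length offsets (GENCODE 29, available for 97.0% of tested genes), and leaving out each library. Figures used matplotlib 3.10.9.

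The members and lists were chosen with earlier results of these data known. The rule names all members, ADNP, the HES and HEY genes, NOTCH2NL, and up to 4 called genes per list with the smallest p. SPEN, CTBP1, TLE2, NUMB, MYC, RBPJ, ADAM10, NRARP and the cell type markers were named after their values were seen. One gene that the rule names is not reported here.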

Additional observations from a re-analysis of the deposited data

How the results depend on the processing

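Members called higher numbered 6, and 3 with the GC offset, alone or with the replicate block. They numbered 4 in DESeq2's Wald test and 4 with the length offset. Members called lower numbered 0, and 1 (JAG2) with the GC offset, alone or with the replicate block. Leaving out single libraries gave 4 to 6 higher and 0 lower. Pathway genes called higher numbered 16, DLK2 included, with 10 in DESeq2's Wald test and 10 to 14 without single libraries. Those called lower numbered 12, with 6 in DESeq2's Wald test, 7 with upper-quartile scaling and 7 to 10 without single libraries. Over all genes, 1824 higher and 1714 lower became 1106 and 1079 in DESeq2's Wald test, and 1559 and 2216 with the length offset. JAG2 ranged from -0.0952 to 0.0157 without single libraries, changing sign without siADNP replicate 2 (0.0157), and HES2 turned to -0.02 with the GC offset, with or without the replicate block (-0.0218 and -0.0210). Over the named genes other than ADNP, 602 alternative values kept their direction and side of the threshold, 119 lost the call, 6 gained it and 3 changed sign. ADNP passed in all 17 alternatives.

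Same-numbered libraries did not deviate together (correlations 0.0238, -0.0352 and -0.0290), so the numbers are not taken as pairs. With the replicate block, 5 members were called higher, as DLL4 missed the threshold (adjusted p = 0.0624), the calls of APH1B (0.0512), CCNC (0.0717), SPEN (0.0664), TLE2 (0.0634) and MYC (0.0706) ended too, and 1694 genes were higher and 1542 lower. Depth limits DLL1, DLL4 and the members with few reads.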
